A study of Homo sapiens with 3 samples.

Results

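The 10 genes described here build and equip the centrosome: PLK4, SASS6, STIL, CENPJ, CEP152, CEP192, CEP135, CEP63, PCNT and TUBG1. They were picked by name, as rows of the deposited table of 20332 genes that carry these symbols, and all 10 were found. All 10 were also among the 11322 genes analysed, those averaging at least 1 CPM (counts per 1000000 counts). RNA-seq was done on MV-4-11, a human leukaemia cell line of B-myelomonocytic type whose genotype is given as wild type. There were 3 groups with 1 library each: untreated cells grown for 1 day, cells given FL-Fc-DM1 at 0.5 nM for 1 day, and cells given it at 1.5 nM for 1 day. All were grown in IMDM with serum. As its name reads, the agent pairs FLT3 ligand and an Fc part with DM1, a maytansine derivative that prevents microtubules from growing. The control library holds 22329953 estimated counts, the 0.5 nM library 16427206 and the 1.5 nM library 16864857. Of 8 markers of the line, all 8 were detected in each library, with a summed level of 3160 CPM in the control, 3014 CPM at 0.5 nM and 3654 CPM at 1.5 nM. Markers of lymphocytes, erythroid cells and fibroblasts summed to at most 0.530 CPM per list in any library. A further list, of epithelial or kidney-derived markers, summed to 16.7 CPM in the control, 18.6 CPM at 0.5 nM and 4.41 CPM at 1.5 nM. The doses were read from the numbers 0, 1 and 2 in the column names, so the statements on the doses would be exchanged if that reading were wrong. With no replicates, no test was made: every difference is between libraries, and brackets give exact 95% intervals that cover counting error only. A gene is said to pass the fold limit where its log2 ratio is at least 0.32 away from 0.

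A centriole is copied once per cell cycle. The scaffold proteins CEP192, CEP152 and CEP63 surround the mother centriole and bring in the kinase PLK4, which binds and phosphorylates STIL; STIL in turn recruits SASS6, whose oligomers form the cartwheel of the new centriole. CENPJ (also called CPAP) and CEP135 connect the cartwheel to the centriolar microtubules and help them grow. PCNT then organises the surrounding matrix, where gamma-tubulin, encoded by TUBG1, nucleates the microtubules on which DM1 acts.

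The promoters of the kinase, its activator, the cartwheel gene and CENPJ are shown because SASS6 and CENPJ had the lowest and the highest log2 ratios of the 10 genes at 1.5 nM, while PLK4 and STIL act in the same step as SASS6. The sequences are RefSeq windows on GRCh38.p14, from 250 bases before to 50 after an annotated start, on the gene's strand. Capitals mark matches to the searched motifs. These were the cell cycle homology element TTTGAA and its variant TTCGAA, the CCAAT box, and E2F-type sites spelled TTTCCCGC, TTTGGCGC, TTTCGCGC or TTTGCCGC, on both strands.
SASS6, chr1:100132881-100133180, minus strand: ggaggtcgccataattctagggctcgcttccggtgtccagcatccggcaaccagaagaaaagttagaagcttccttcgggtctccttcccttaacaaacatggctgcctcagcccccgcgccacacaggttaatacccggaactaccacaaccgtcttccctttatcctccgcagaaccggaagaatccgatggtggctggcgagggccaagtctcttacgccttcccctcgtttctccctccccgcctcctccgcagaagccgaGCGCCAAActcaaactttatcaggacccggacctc
PLK4, chr4:127880643-127880942, plus strand: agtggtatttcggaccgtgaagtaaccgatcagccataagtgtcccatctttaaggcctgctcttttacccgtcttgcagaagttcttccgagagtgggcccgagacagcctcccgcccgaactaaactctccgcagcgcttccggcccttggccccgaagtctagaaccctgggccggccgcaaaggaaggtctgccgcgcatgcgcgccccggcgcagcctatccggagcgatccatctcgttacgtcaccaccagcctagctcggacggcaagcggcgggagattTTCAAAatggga
STIL, chr1:47314098-47314397, minus strand: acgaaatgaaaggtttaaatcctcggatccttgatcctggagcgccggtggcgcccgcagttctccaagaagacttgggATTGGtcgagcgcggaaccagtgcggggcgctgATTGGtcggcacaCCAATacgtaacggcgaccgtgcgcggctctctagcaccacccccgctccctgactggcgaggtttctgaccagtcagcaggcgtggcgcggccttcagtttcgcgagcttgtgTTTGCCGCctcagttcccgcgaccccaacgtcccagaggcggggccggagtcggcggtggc
CENPJ, chr13:24922812-24923111, minus strand: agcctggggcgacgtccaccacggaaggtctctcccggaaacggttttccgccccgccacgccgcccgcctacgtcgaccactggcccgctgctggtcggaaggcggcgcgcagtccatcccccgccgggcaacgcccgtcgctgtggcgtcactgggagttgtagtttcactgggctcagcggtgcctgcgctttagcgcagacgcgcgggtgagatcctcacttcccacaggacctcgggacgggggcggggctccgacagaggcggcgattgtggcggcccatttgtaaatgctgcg

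The SASS6 window held 1 E2F-type match, the STIL window 1 E2F-type match and 3 CCAAT boxes, the PLK4 window shown 1 TTTGAA match, and the CENPJ window no match to these letters. Of the PLK4 windows not shown, 1 held a CCAAT box and 1 held no match. Some genes have more than 1 annotated start, so the 10 genes gave 14 windows. E2F-type matches lay in 5 (35.7%) of the 14 windows and in 3.31% of all 35116 windows of that length. All windows served as background, not matched for GC content, and the part of GC content in this difference was not tested. TTTGAA lay in 4 (28.6%) of the 14 and in 15.2% of all windows, TTCGAA in 0 of the 14 and in 1.45% of all, and CCAAT in 7 of the 14 and in 34.6% of all. The genes with an E2F-type match were SASS6, STIL, CEP192, CEP63 and TUBG1. At 1.5 nM, SASS6, STIL and TUBG1 of these 5 lay below the control and CEP192 and CEP63 above it. Of the genes without an E2F-type match, PLK4, CEP152 and CEP135 lay below the control and CENPJ and PCNT above it. Counting intervals spanned 0 for CEP192, CEP63, PLK4, CEP152 and CEP135, so their side is not settled. Those with intervals clear of 0 were SASS6, STIL and TUBG1 below the control, and CENPJ and PCNT above it. A link between the matches and the ratios was not tested. A match is a string of letters, and binding was not measured.

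At 0.5 nM the centriole and centrosome genes stood close to the control, and at 1.5 nM SASS6 alone passed the fold limit, on the lower side. At 0.5 nM against the control, 0 of the 10 genes passed the fold limit on the lower side, where 4.52% of all genes analysed did, and 0 on the higher side, where 7.26% did. At 1.5 nM against the control, 1 of 10 passed it on the lower side, beside 8.96% of all genes, and 0 on the higher side, beside 12.0% of all genes. With 10 genes, a count of 1 or 0 lies near these shares. No member was 2-fold away in either direction at either dose, beside 0.76% of all genes at 0.5 nM and 2.04% at 1.5 nM. The median log2 ratio of the 10 genes was 0.03 at 0.5 nM and -0.06 at 1.5 nM, beside 0.0017 and -0.00088 over all genes analysed. Both treated libraries are set against the same control library, so the ratios at the doses are not independent of each other.

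**Figure D1:**
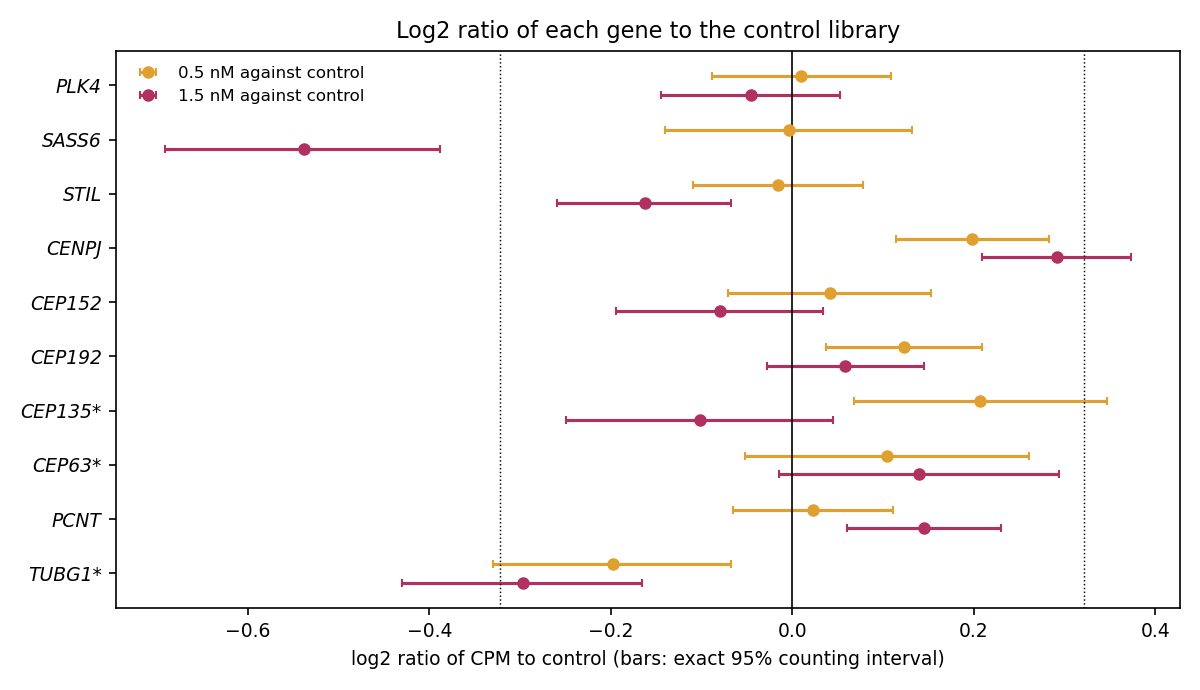
Log2 ratio of CPM to the control library (x axis) for each of the 10 genes (rows), at 0.5 nM (orange) and 1.5 nM (dark red); bars are exact 95% counting intervals, dotted lines mark the fold limit, and asterisks mark genes with counts that are not whole. SASS6 at 1.5 nM, at -0.54, is the only point beyond a dotted line.

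Among the scaffold genes that position PLK4, differences were small. CEP192 (ENSG00000101639), the scaffold that holds PLK4 in early cell cycle and also builds the mitotic matrix, had 110.5 CPM in the control, 120.4 CPM at 0.5 nM and 115.1 CPM at 1.5 nM. Against the control its log2 ratio was 0.12 [0.04, 0.21] at 0.5 nM and 0.06 [-0.03, 0.14] at 1.5 nM, so counting error covers the second and not the first. CEP192 has 42.1% GC in its transcript, and with the trend over GC content removed its log2 ratio at 0.5 nM was 0.08. CEP152 (ENSG00000103995), which takes over PLK4 at the growing ring, had 67.8 CPM in the control, 69.7 CPM at 0.5 nM and 64.1 CPM at 1.5 nM. Its log2 ratio was 0.04 [-0.07, 0.15] at 0.5 nM and -0.08 [-0.19, 0.03] at 1.5 nM. For this gene the authors' TPM values (transcripts per 1000000, scaled to length) ran the other way at 1.5 nM, with 24.3 TPM in the control, 26.1 TPM at 0.5 nM and 27.9 TPM at 1.5 nM, a log2 TPM ratio of 0.19 at 1.5 nM. The transcript length implied by count over TPM was lower at 1.5 nM than in the control by a log2 difference of -0.24, and by 0.2 or more in either direction for 5.05% of 9772 genes averaging at least 5 CPM; CEP152 was the only one of the 10 genes past that size. It overlaps 2 RNA genes on the opposite strand, AC012379.1 and AC012379.2. CEP63 (ENSG00000182923), the partner that brings CEP152 to the centriole, had 34.1 CPM in the control, 36.7 CPM at 0.5 nM and 37.6 CPM at 1.5 nM, with a log2 ratio of 0.14 [-0.01, 0.29] at 1.5 nM. Its counts were not whole, and it overlaps ANAPC13 on the opposite strand in GENCODE release 29; the use of strand in counting is not stated, which leaves its value uncertain.

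PLK4, STIL and SASS6, which carry out the first step of assembly, had unlike ratios at 1.5 nM. PLK4 (ENSG00000142731), the kinase whose amount sets how many centrioles form, had 1952 counts in untreated cells, 1473 at the lower dose and 1458 at the higher dose. Scaled to depth these were 88.6 CPM, 89.2 CPM and 85.8 CPM in the same order. The log2 ratio of PLK4 was 0.01 [-0.09, 0.11] at 0.5 nM and -0.05 [-0.14, 0.05] at 1.5 nM, so both intervals span 0. STIL (ENSG00000123473) had 2175 counts in untreated cells, 1612 at the lower dose and 1498 at the higher dose, or 98.7 CPM, 97.6 CPM and 88.1 CPM. STIL was level with the control at 0.5 nM, with a log2 ratio of -0.02 [-0.11, 0.08], and a little lower at 1.5 nM, with -0.16 [-0.26, -0.07].

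SASS6 (ENSG00000156876), the cartwheel gene, had 1033 counts in untreated cells, 772 at the lower dose and 548 at the higher dose. This is 46.9 CPM in the control, 46.7 CPM at 0.5 nM and 32.2 CPM at 1.5 nM: the control and 0.5 nM libraries were alike, and the 1.5 nM library stood apart. The log2 ratio of SASS6 was -0.0040 [-0.14, 0.13] at 0.5 nM and -0.54 [-0.69, -0.39] at 1.5 nM, a level 0.689-fold that of the control. Of all genes analysed, 2.84% had a ratio at 1.5 nM as low or lower. SASS6 overlaps the RNA gene AC093019.2 on the same strand, so counting by strand would not separate their reads. Directly between the doses the ratio was -0.53 [-0.70, -0.38]. Set against the kinase within each library, SASS6 had 0.496 TPM per TPM of PLK4 in the control library, 0.488 at 0.5 nM and 0.358 at 1.5 nM, a comparison that does not depend on library scaling. STIL had 0.890 TPM per TPM of PLK4 in the control library, 0.862 at 0.5 nM and 0.835 at 1.5 nM. In bulk RNA, fewer cells at a cell cycle stage and less RNA per cell cannot be told apart. Markers foreign to this line also differed for the 1.5 nM library: 8 epithelial or kidney-derived markers summed to 16.7 CPM in the control, 18.6 CPM at 0.5 nM and 4.41 CPM at 1.5 nM. Of these 8, EPCAM was at 0 counts in each library, IRS4 had 224 counts in untreated cells, 204 at the lower dose and 0 at the higher dose, and the number at 0 was 2 in the control library, 2 at 0.5 nM and 6 at 1.5 nM. IRS4 made up 10.2 CPM of the sum in the control, and the list did not go 1 way: KRT8 was at 1.50 CPM in the control, 1.94 CPM at 0.5 nM and 2.59 CPM at 1.5 nM. The markers' part in the SASS6 result, and in the other ratios that use the 1.5 nM library, was not tested.

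**Figure D2:**
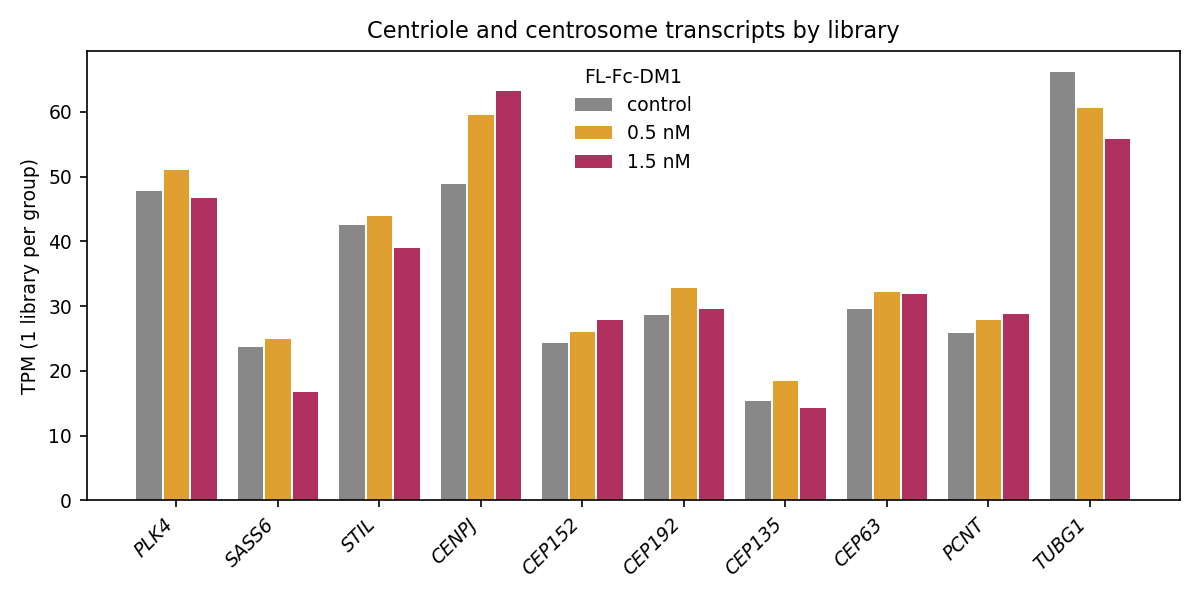
Authors' TPM (y axis, from 0) of the 10 genes (x axis) in the control (grey), 0.5 nM (orange) and 1.5 nM (dark red) libraries; each bar is 1 library, so there is no error bar. SASS6 is at 16.7 TPM at 1.5 nM against 23.7 TPM in the control, while CENPJ is at 63.3 TPM at 1.5 nM against 48.9 TPM in the control.

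Of the genes that build the centriole wall, CENPJ stood higher in both treated libraries. CENPJ (ENSG00000151849), whose protein binds tubulin and supports growth of the centriolar microtubules, had 2478 counts in untreated cells, 2131 at the lower dose and 2339 at the higher dose, or 112.4 CPM, 129.0 CPM and 137.6 CPM. Its log2 ratio was 0.20 [0.11, 0.28] at 0.5 nM and 0.29 [0.21, 0.37] at 1.5 nM, short of the fold limit at both doses. Counting CENPJ, 1729 of the 11322 genes analysed had a ratio as high or higher at 0.5 nM, and 1548 at 1.5 nM. In TPM the log2 ratio of CENPJ was 0.28 at 0.5 nM and 0.37 at 1.5 nM, the second past the fold limit. All genes analysed had a median log2 TPM ratio of 0.06 at 0.5 nM and 0.03 at 1.5 nM. CEP135 (ENSG00000174799), which ties the cartwheel to the wall, had 41.1 CPM in the control, 47.5 CPM at 0.5 nM and 38.3 CPM at 1.5 nM. Here the 0.5 nM library was the high one, with a log2 ratio to the control of 0.21 [0.07, 0.35], while 1.5 nM had -0.10 [-0.25, 0.04]. CEP135 has 36.1% GC in its transcript, and with the trend over GC content removed its log2 ratio at 0.5 nM was 0.11. CEP135 had counts that were not whole and is therefore uncertain.

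In the matrix and its nucleator, PCNT and TUBG1 lay on opposite sides of the control. PCNT (ENSG00000160299), the pericentrin gene, had 110.3 CPM in the control, 112.0 CPM at 0.5 nM and 121.9 CPM at 1.5 nM. Its log2 ratio was 0.02 [-0.07, 0.11] at 0.5 nM and 0.14 [0.06, 0.23] at 1.5 nM. TUBG1 (ENSG00000131462) had 54.7 CPM in the control, 47.6 CPM at 0.5 nM and 44.5 CPM at 1.5 nM, so both treated libraries lay below the control. Its log2 ratio was -0.20 [-0.33, -0.07] at 0.5 nM and -0.30 [-0.43, -0.17] at 1.5 nM. Of all genes analysed, 11.9% had a ratio as low or lower at 0.5 nM and 10.5% at 1.5 nM. TUBG1 counts were not whole, the sources do not state why, and reads may be split with its near-identical copy TUBG2; it also overlaps RETREG3 on the opposite strand. TUBG2 was rare, with 49.6 counts in untreated cells, 25.1 at the lower dose and 41.8 at the higher dose, against 1205.4, 786.9 and 756.2 for TUBG1 in the same order. Its log2 ratio of 0.12 [-0.50, 0.74] at 1.5 nM has an interval too wide to place it.

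Between the doses, 1.5 nM against 0.5 nM, 1 of the 10 genes (SASS6) passed the fold limit on the lower side, beside 7.11% of all genes, and 0 on the higher side, beside 8.46%. A 2-fold difference in either direction was seen for 0 members and 0.972% of all genes. CEP135 came next to SASS6, at -0.31 [-0.46, -0.16]. PCNT had 0.12 [0.03, 0.21] and CENPJ 0.09 [0.01, 0.18], while the median of the 10 was -0.08.

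Per length, TUBG1 was the most abundant of the 10 transcripts in the control, at 66.1 TPM, followed by CENPJ at 48.9, PLK4 at 47.8, STIL at 42.5, CEP63 at 29.6, CEP192 at 28.7, PCNT at 25.9, CEP152 at 24.3, SASS6 at 23.7 and CEP135 at 15.4 TPM. Counting intervals of neighbours overlapped for CENPJ and PLK4, for CEP63 and CEP192, and along PCNT, CEP152 and SASS6, so those neighbours cannot be ordered even by counting error. At 1.5 nM CENPJ led with 63.3 TPM over TUBG1 with 55.8 TPM, and SASS6 with 16.7 TPM had an interval that overlapped that of CEP135 at 14.2 TPM. Summed over the 10 genes the level was 353 TPM in the control, 377 TPM at 0.5 nM and 354 TPM at 1.5 nM. Among all genes analysed, the 10 lay between the 34.9 percentile of TPM (CEP135 at 1.5 nM) and the 76.8 percentile (TUBG1 in the control).

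Likeness to the kinase, its activator and the cartwheel gene was measured as the distance over the log2 ratios at both doses, among 7657 genes with whole counts and an average of at least 5 CPM. The nearest to SASS6 were FIZ1 at a distance of 0.02, MARS2 at 0.04 and LSM11 at 0.04. Nearest to PLK4 were ABRACL at 0.0011, PKP4 at 0.0032 and GAREM2 at 0.0035, and nearest to STIL were ZDHHC16 at 0.0015 and RPP25 at 0.0053. Of the 7657 genes, 1407 lay within a distance of 0.1 of PLK4, 950 of STIL and 24 of SASS6, so the genes named for PLK4 and STIL are a few among many. This likeness rests on 3 libraries, and the distances are smaller than the counting intervals of the ratios.

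Transcript GC content differed among the 10 genes and moved with the ratios of all genes. The Spearman correlation of GC content with the log2 ratio across 11252 genes was -0.27 at 0.5 nM and 0.13 at 1.5 nM; genes share their libraries and are not replicates. SASS6 had 34.9% GC and PLK4 38.4%, while TUBG1 had 57.8% and the median gene 48.0%. With the GC trend removed, SASS6 had a log2 ratio of -0.50 at 1.5 nM and TUBG1 -0.33, which places TUBG1 past the fold limit as well. CENPJ had 0.17 at 0.5 nM and 0.31 at 1.5 nM on that scale. Between 1.5 nM and 0.5 nM the correlation with GC content was 0.40, and with the trend removed SASS6 had -0.41 and CEP135 -0.19.

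**Figure D3:**
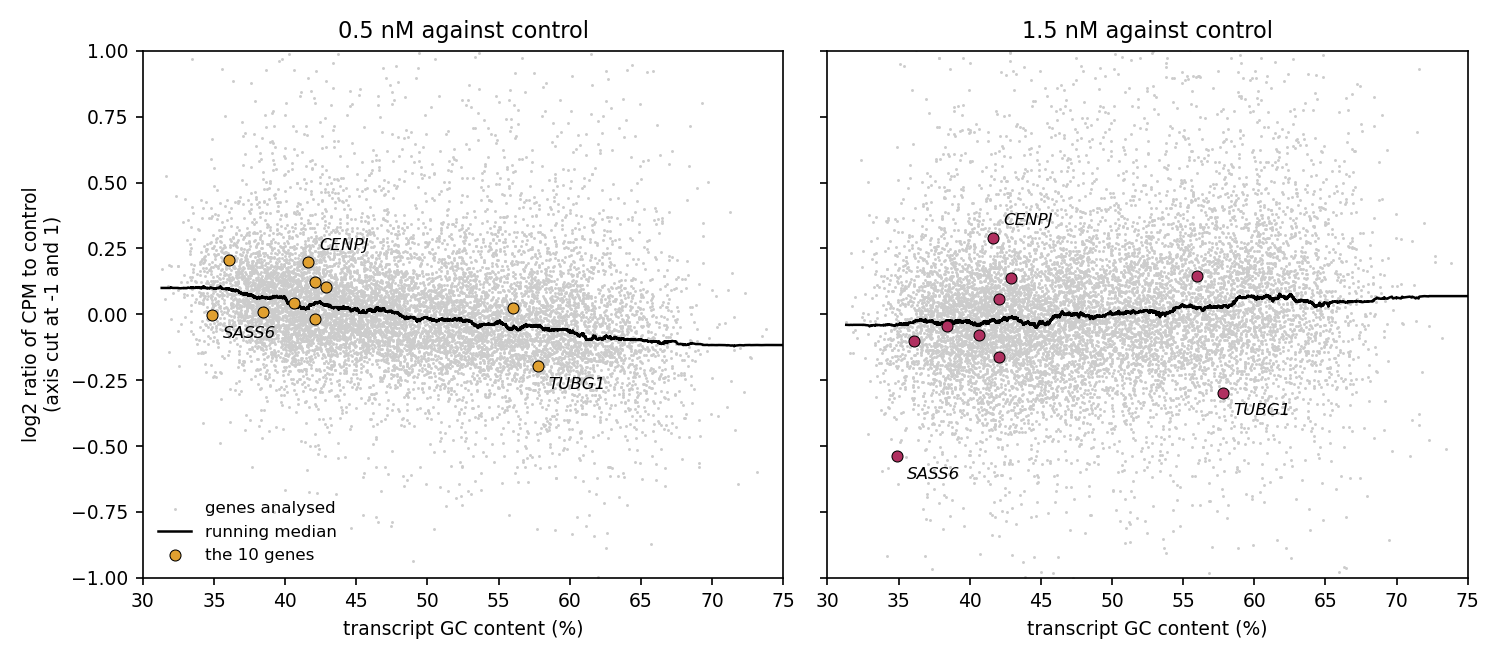
Log2 ratio of CPM to the control (y axis) against transcript GC content in percent (x axis), at 0.5 nM on the left and 1.5 nM on the right; grey points are genes with a GC value, of which those beyond -1 or 1 are not drawn, the black line is their running median and coloured points are the 10 genes. SASS6, at 34.9% GC, lies on the low side of the line at 1.5 nM, and TUBG1, at 57.8% GC, lies below it in both panels.

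Other genes of the centrosome were taken from 7 lists and given beside the 10. At 1.5 nM each count past the fold limit is to be read against 8.96% of all genes analysed on the lower side and 12.0% on the higher side. In procentriole assembly and elongation, 2 of 21 measured genes (9.52%) passed the fold limit on the lower side and 0 on the higher side at 1.5 nM, with a median of -0.12. The lower share is close to that of all genes. CEP97, which caps the growing end together with CCP110, had the lowest ratio there, -0.68 [-0.85, -0.51], with 39.8 CPM in the control, 37.7 CPM at 0.5 nM and 24.8 CPM at 1.5 nM. At 0.5 nM CEP97 had -0.08 [-0.23, 0.07], an interval that spans 0. SFI1, a centrin-binding protein gene, had -0.50 [-0.79, -0.23], the centrin gene CETN2 -0.31 [-0.49, -0.12] and CEP295, needed for centrioles to mature into centrosomes, -0.28 [-0.42, -0.14].

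Among gamma-tubulin ring complex, augmin and matrix genes, 2 of 19 (10.5%) passed the limit on the lower side, close to the 8.96% of all genes, and 0 on the higher side at 1.5 nM, with a median of -0.10. The augmin subunit genes HAUS2 and HAUS1 had -0.48 [-0.59, -0.36] and -0.34 [-0.49, -0.20], HAUS7 had -0.28 [-0.53, -0.04] and the ring subunit gene TUBGCP4, just short of the limit, -0.32 [-0.43, -0.21]; HAUS7 and TUBGCP4 had counts that are not whole. Of 9 partners that help recruit PLK4 or scaffold the centrosome, 1 was lower and 0 higher, with a median of -0.06. That gene was CEP57L1, at -0.37 [-0.53, -0.20]; its relative CEP57, with counts that are not whole, had -0.19 [-0.29, -0.09], CEP131 -0.16 [-0.47, 0.13] and PIBF1, a satellite protein gene, 0.21 [0.05, 0.37].

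Genes of the mother centriole's appendages and of the linker between centrosomes had medians near 0. Of 12 appendage genes, 0 were lower and 1 was higher at 1.5 nM, with a median of 0.06: FBF1 had 0.38 [0.14, 0.63], CEP164 0.29 [0.13, 0.44], CEP83 -0.20 [-0.38, -0.02] and CEP89 -0.20 [-0.41, 0.01]. Of 5 linker genes, 0 were lower and 1 was higher, with a median of -0.03. NEK2, the kinase that dissolves the linker before mitosis, had 0.41 [0.29, 0.53], LRRC45 -0.30 [-0.57, -0.05], CEP250 -0.07 [-0.18, 0.05] and CNTLN 0.06 [-0.12, 0.25].

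Among 15 genes that act in turnover or licensing of duplication, 2 (13.3%) passed the limit on the lower side, beside 8.96% of all genes, and 3 (20.0%) on the higher side, beside 12.0%, at 1.5 nM, with a median of -0.02. The mitotic genes AURKA and CDC20 had 0.49 [0.41, 0.57] and 0.49 [0.42, 0.56], and the kinase PLK1 0.40. CCNF, the ubiquitin ligase subunit that targets the centriole protein CP110, had -0.49 [-0.60, -0.38], and FZR1, an activator of the anaphase-promoting complex, -0.44 [-0.59, -0.29]. In the list on sensing of extra or lost centrosomes, 1 of 8 genes was lower and 2 were higher, with a median of 0.03. The list is wider than the sensors themselves: it also holds CDKN1A, MDM2 and LATS2, and the 2 higher genes were LATS2 and CDKN1A. CASP2, the protease of the PIDDosome, had -0.45 [-0.54, -0.36], TP53BP1, with counts that are not whole, -0.21 [-0.33, -0.08], LATS2 0.35 [0.16, 0.54] and CDKN1A, the p21 gene, 0.75 [0.51, 0.99]. At 0.5 nM, 2 of these 8 passed the limit on the higher side, beside 7.26% of all genes: CDKN1A with 1.43 [1.22, 1.66] and MDM2, which encodes the p53 ligase, with 0.56 [0.48, 0.63]. The ring complex list then had 2 of 19 genes past it on the lower side, beside 4.52% of all genes: MZT2B with -0.33 [-0.52, -0.15] and TUBG2 with -0.55 [-1.34, 0.14], both with counts that are not whole. The other 5 centrosome lists held none at 0.5 nM.

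Replication and mitosis genes are given for comparison. These lists, too, were chosen with earlier results of these data known, so they are not independent references. Of 22 genes of S phase and DNA replication, 15 (68.2%) passed the fold limit on the lower side at 1.5 nM, beside 8.96% of all genes, with a median of -0.43. Of 16 mitosis genes, 5 (31.2%) passed it on the lower side and 2 (12.5%) on the higher side, beside 8.96% and 12.0% of all genes, with a median of -0.01. SASS6 lay below the median of the replication genes, among which CCNE2, with counts that are not whole, had -0.92, CCNE1 -0.73, UHRF1 -0.65 and MCM4 -0.51. That list ran from -0.92 to -0.12, so STIL, at -0.16, lay near its upper end and PLK4, at -0.05, above it. At 0.5 nM all 22 replication genes lay below the control, with a median of -0.18, beside 0.0017 over all genes. Of these 22, 2 (9.09%) passed the fold limit on the lower side, beside 4.52% of all genes. The highest of them had -0.024, and SASS6 at -0.0040, STIL at -0.016 and PLK4 at 0.0099 lay above it. In the mitosis list, TOP2A had -0.61, CDK1 -0.51, NUSAP1 -0.37, MKI67 -0.36, KIF11 -0.33, HMMR 0.50 and CCNB1 0.54. All 10 genes lay within this range, as did most genes analysed. At 1.5 nM only 8.96% of all genes passed even the narrower fold limit on the lower side, and 12.0% on the higher side. FLT3, the receptor of the ligand, stood at 506 CPM in the control, 489 CPM at 0.5 nM and 448 CPM at 1.5 nM.

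**Figure D4:**
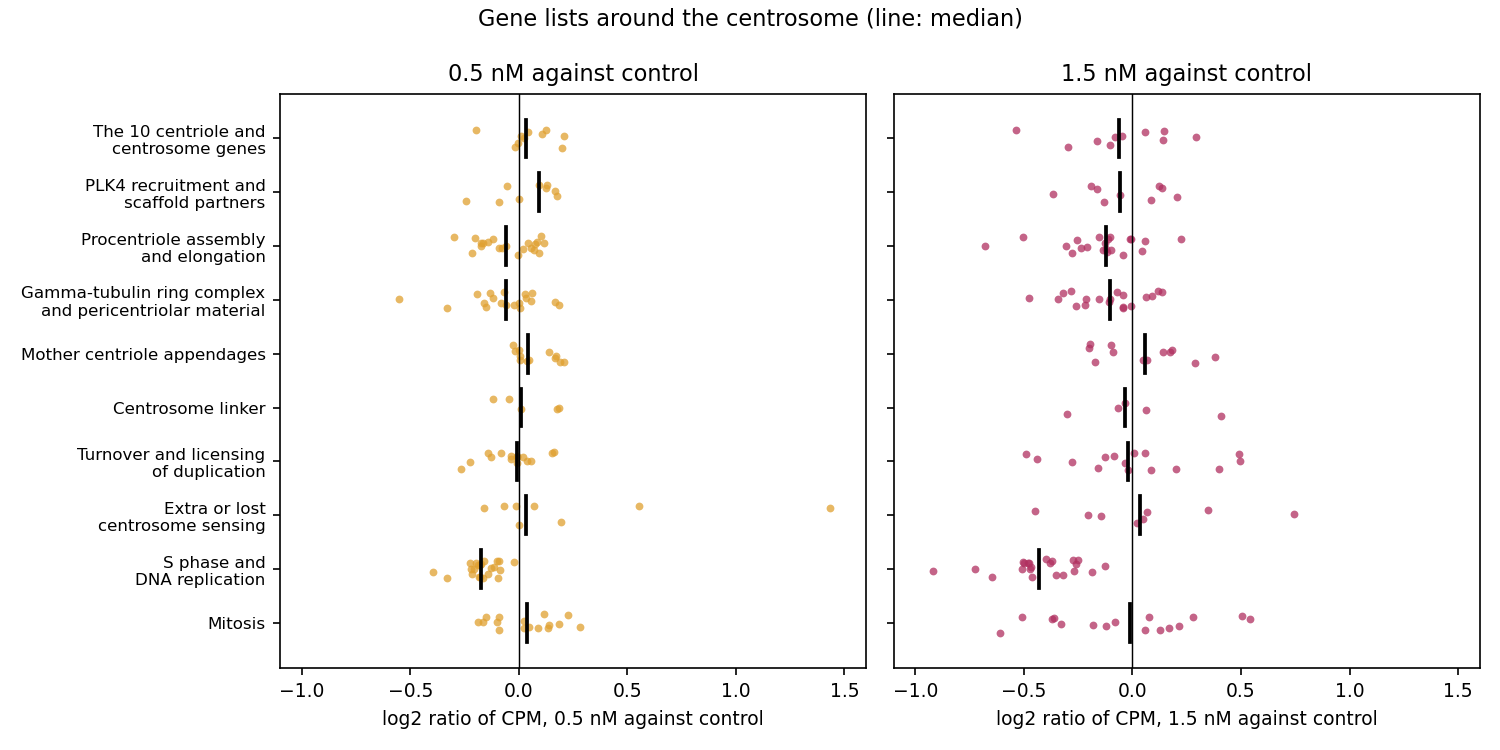
Log2 ratio of CPM to the control (x axis) for the 10 genes and for 9 gene lists (rows), at 0.5 nM on the left and 1.5 nM on the right; each point is a gene averaging at least 1 CPM and black lines are medians. At 1.5 nM the replication list sits lowest, with a median of -0.43, and the 10 genes spread around -0.06.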

How the data were processed

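RNA-seq of MV-4-11 cells was analysed in 3 libraries, 1 per group. The authors deposited estimated counts per gene, without normalisation, of which 12.0% to 12.7% in a library were not whole. They also deposited TPM values, which are scaled to length. Tools named in the submitters' processing notes are HISAT2, fastp 0.18.0, edgeR, StringTie 1.3.1 and DESeq2, with no roles; for the build and the gene models nothing is given in the sources used here. With 1 library per group, differences between libraries may be technical.

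Counts were rounded, genes averaging at least 1 CPM were kept, and libraries were scaled with TMM (edgeR 4.0.16, R 4.3.3; factors 0.987 for the control, 1.01 for 0.5 nM and 1.01 for 1.5 nM). Log2 ratios are differences of log2 CPM with a prior count of 2; printed CPM values have no prior count. Intervals are Clopper-Pearson, from the counts of both libraries, or Poisson for single TPM levels (scipy 1.17.1, Python 3.11.15). The fold limit was a log2 ratio of 0.32, and 2-fold was counted too. Transcript GC content was that of the longest transcript in GENCODE release 29. The 10 genes and the lists were chosen with earlier results of these data known. Named genes are the 10, FLT3, TUBG2, up to 4 per list with a mean of 5 or more CPM and the largest ratio at 1.5 nM, and the 3 nearest to PLK4, SASS6 and STIL (1 of STIL is not reported here); PLK1, NUSAP1, MKI67, KIF11, MDM2, MZT2B, IRS4, KRT8, CPLANE2 and TSGA10 were named after their values were seen. Promoters came from RefSeq by symbol, CENPJ under the symbol CPAP. Recovery of known log2 ratios and coverage of the intervals were tested on simulated Poisson counts. Other steps, such as TMM scaling and removal of the GC trend, were not tested this way.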

Additional observations from a re-analysis of the deposited data

How the results depend on the processing

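Under 7 other settings (no TMM factor, DESeq2 1.42.0 size factors, deposited TPM with a pseudocount of 0.1, a prior count of 0.5, no filter on low counts, GC trend removed, scaling on whole-count genes), SASS6 at 1.5 nM against the control ranged from -0.55 to -0.50, CENPJ from 0.28 to 0.37 and TUBG1 from -0.33 to -0.24. The number of the 10 genes past the fold limit on the lower side at 1.5 nM against the control was 2 with the GC trend removed, where TUBG1 joined SASS6. With deposited TPM, 1 gene (CENPJ) passed it on the higher side at 1.5 nM against the control, and 2 (SASS6 and CEP135) on the lower side at 1.5 nM against 0.5 nM. The other counts of the 10 genes past the limit were unchanged in these settings. Near 0, signs varied: at 0.5 nM against the control PLK4 ranged from -0.06 to 0.09, SASS6 from -0.10 to 0.07 and STIL from -0.06 to 0.05. CEP152 had a log2 ratio of 0.19 in TPM, against -0.08 in CPM, at 1.5 nM; the cause was not tested. Restricting the counts to the 7 genes with whole counts, an alternative chosen after seeing the data, changed no count. With 1 library per group no library could be left out and no test was made. Depth leaves CEP63, which had the lowest mean CPM of the 10, with an interval of -0.01 to 0.29 at 1.5 nM.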

Other observations

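Apart from the 10, 122 genes analysed carry the annotation centriole in the deposited table. At 1.5 nM against the control, 11 (9.02%) of them passed the fold limit on the lower side, beside 8.96% of all genes, and 11 (9.02%) on the higher side, beside 12.0%, with a median log2 ratio of -0.04. Of these genes, 2 were at least 2-fold away, as were 2.04% of all genes. TSGA10, a gene of the sperm tail and centrosome, had 73 counts in untreated cells, 57 at the lower dose and 120 at the higher dose, a log2 ratio of 1.07 [0.66, 1.53] at 1.5 nM. CPLANE2, a gene of ciliogenesis, had 27 counts in untreated cells, 25 at the lower dose and 7 at the higher dose, a log2 ratio of -1.36 [-3.02, -0.34] at 1.5 nM. At 0.5 nM the log2 ratio was 0.06 [-0.47, 0.58] for TSGA10 and 0.28 [-0.54, 1.15] for CPLANE2, so both intervals span 0.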
